A study of Saccharomyces cerevisiae with 6 samples.

Results

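The interaction of assay and time asks, for each spot of the array, whether active RNAP II changed differently from total RNAP II between 30 and 60 min after release from G1. It is the change in genomic run-on (GRO) minus the change in RNA polymerase II chromatin immunoprecipitation (RNAp ChIP), 60 against 30 min. A spot entered the test when it had 2 or more values in each of the 4 groups, which 5698 of 6144 spots did, and 5263 of these had a value in all 12 hybridizations.

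In GRO, polymerases that are engaged and able to elongate extend their transcripts with labelled UTP in permeabilized cells. RNAp ChIP recovers the DNA under all RNAP II, whether it is elongating, paused or backtracked. A gene can therefore gain polymerase without gaining run-on signal, or gain run-on signal from polymerase that it already carried, and the interaction is positive where GRO moved up relative to RNAp ChIP. In the budding yeast cycle, S phase is the time of DNA replication, and G2 and M lead to nuclear division.

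The 4 groups were GRO at 60 min, GRO at 30 min, RNAp ChIP at 60 min and RNAp ChIP at 30 min, each with 3 replicates. All came from wild type BY4741 cells carrying plasmid pRS316, grown in synthetic medium, arrested in G1 with alpha factor at 1 µg/ml, washed and released. The labels place most cells at 60 min in G2/M and the culture at 30 min in a stage enriched in S, and both assays also have 3 replicates at 0 min, in G1, which share the estimate of spread. Run-on RNA was divided by the genomic DNA hybridized to the same nylon filter, and IP (Rpb3 antibody, with amplification by PCR) by the whole cell extract (WCE) of the same replicate.

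The log2 ratios of each hybridization were scaled to z-scores, so that 1 z unit is 1 SD of the spots in that hybridization. This SD was 1.46 to 1.53 log2 units in GRO at 60 min and 1.48 to 1.53 in GRO at 30 min. It was 0.913 to 1.11 log2 units in RNAp ChIP at 60 min and 1.02 to 1.08 in RNAp ChIP at 30 min. A z-score places a spot among the other spots of its hybridization, so a change that all spots share does not show. In a culture, a change within every cell and a change in the share of cells at a stage cannot be told apart. Between 112 and 265 spots per hybridization of run-on RNA, IP or WCE in these 4 groups had an intensity of 0 and were treated as missing. For the genomic DNA of the filters used for GRO at these times, the range was 202 to 315 spots. The files give each spot's place in the grid (row, column and position) and pair it with no gene, so the results are for spots and no pathway or gene list was examined.

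For RNAp ChIP the titles of the samples at 30 and 60 min exchange the time points that their descriptions give, and the descriptions were followed. GRO at 60 min was hybridized to filters 5, 6 and 7 and GRO at 30 min to filters 1, 2 and 4, so that filter and time cannot be told apart in GRO. The labels name no filter for RNAp ChIP. Across 5352 spots with every denominator above 0, the deviation of each WCE hybridization from the mean of all denominators was compared with that of each genomic DNA filter. In 9 of 9 WCE hybridizations the highest correlation was with the filter used for the GRO replicate of the same time and number. These values of r ranged from 0.236 to 0.649, and the highest r with any other filter was 0.142. With the times in the descriptions, RNAp ChIP at 60 min thus matched filters 5, 6 and 7 and RNAp ChIP at 30 min matched filters 1, 2 and 4. On this match, filter and time cannot be told apart in RNAp ChIP either.

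**Figure D1:**
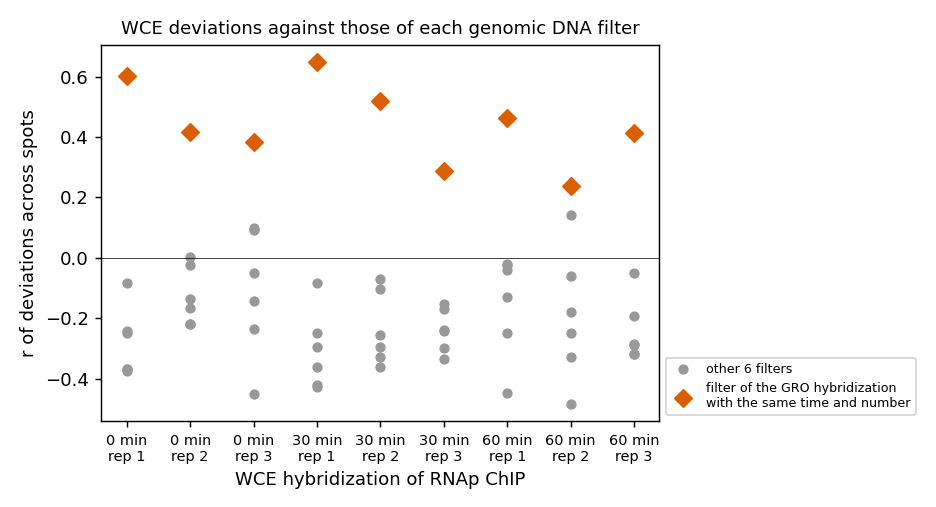
Pearson's r across spots (y axis) between the deviation of each of the 9 WCE hybridizations (x axis) and that of each genomic DNA filter, both from the mean of all denominators. The diamonds, the filter of the GRO hybridization with the same time and number, lie between 0.236 and 0.649, above the other 6 filters in each column.

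At 3 of the 5698 spots the interaction had an adjusted p below 0.05 (moderated test of limma, Benjamini-Hochberg over all spots), which is 0.0527% of the spots tested. Spots past this threshold are referred to as called. The interaction was negative at all 3, so that GRO fell relative to RNAp ChIP, and at no spot did GRO rise relative to RNAp ChIP past the threshold. Without adjustment, 620 spots (10.9%) had p below 0.05, 302 with a positive and 318 with a negative interaction. On median-centred log2 ratios the same test called 0 spots, with a lowest adjusted p of 0.0619 and 587 spots at an unadjusted p below 0.05. Leaving out replicate 1 or 2 of GRO at 60 min, replicate 1 or 3 of GRO at 30 min or replicate 3 of RNAp ChIP at 60 min also gave 0, and leaving out RNAp ChIP at 30 min gave 1 (replicate 3) or 6 (replicate 2).

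Each assay on its own gave more calls than the difference between them. From the same fit, GRO rose at 53 spots (0.930%) and fell at 31 (0.544%), 84 in all (1.47%). RNAp ChIP rose at 174 spots (3.05%) and fell at 111 (1.95%), 285 in all (5.00%). The median standard error was 0.335 z units for the interaction and 0.237 for the change in either assay. On median-centred log2 ratios the counts were 194 in GRO, 107 of them upward, and 112 in RNAp ChIP, 85 of them upward. The share of RNAp ChIP calls that rose was thus 75.9% on that scale, against 61.0% on z-scores.

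Over all 5698 spots the SD was 0.474 z units for the GRO change, 0.521 for the RNAp ChIP change and 0.616 for the interaction. The middle 90% of interactions lay between -0.93 and 0.92 z units, with a median of -0.02. An interaction above 1 was found at 241 spots and one below -1 at 249 spots, and the extremes were -6.79 and 3.95.

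**Figure D2:**
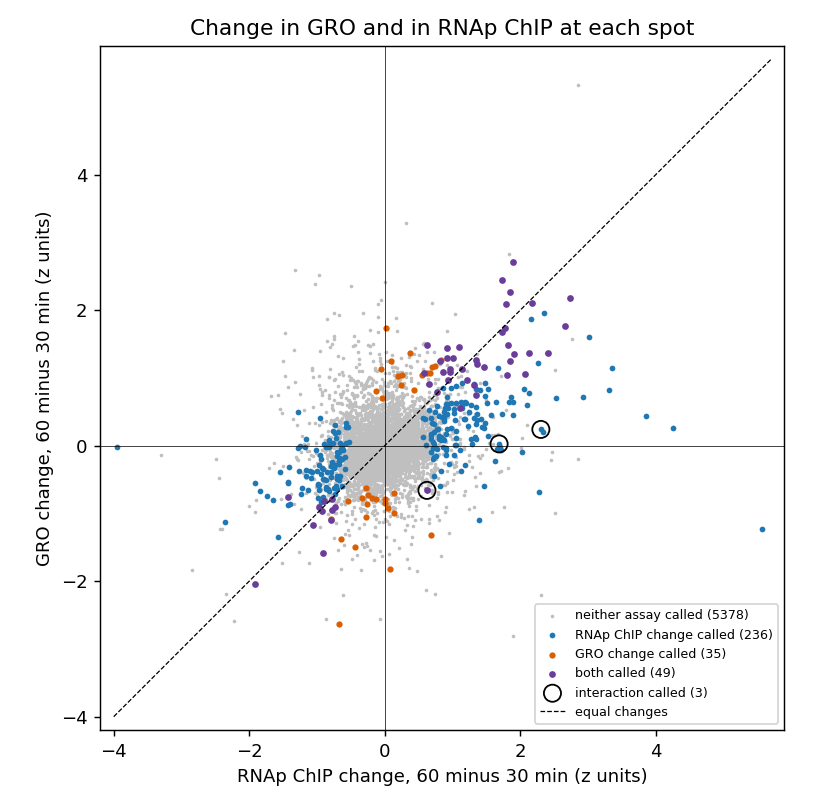
Change in GRO (y axis) against change in RNAp ChIP (x axis), 60 minus 30 min in z units, for the 5698 spots, with equal changes on the dashed line. Colours mark the 35 spots called in GRO alone, the 236 called in RNAp ChIP alone and the 49 called in both, and rings mark the 3 spots called for the interaction, all below the line.

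The spot R4 - C18 : 16 had the lower adjusted p of the pair of called spots with neither denominator among the dimmest 25%, and its change lay in RNAp ChIP. Its RNAp ChIP values were 1.13, 1.11 and 1.39 z units at 60 min, against -0.61, -0.38 and -0.43 at 30 min. Its GRO values were 1.35, 1.23 and 1.69 z units at 60 min, against 1.30, 1.38 and 1.51 at 30 min. The RNAp ChIP values did not overlap between the times, whereas the GRO values did. RNAp ChIP rose by 1.69 z units (standard error 0.185, adjusted p = 8.47e-05, limma), and the GRO change was 0.03 (standard error 0.185, adjusted p = 0.970, limma). The interaction was -1.66 z units (standard error 0.261, adjusted p = 0.0346, limma). On median-centred log2 ratios it was -1.71 (standard error 0.347, adjusted p = 0.112, limma).

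At 0 min, in G1, this spot had RNAp ChIP values of 1.22, 1.64 and 1.88 z units and GRO values of 1.33, 1.22 and 0.91. Over 0, 30 and 60 min its RNAp ChIP means were 1.58 ± 0.33, -0.48 ± 0.12 and 1.21 ± 0.16 (SD, n = 3 each). Its GRO means were 1.15 ± 0.22, 1.40 ± 0.11 and 1.42 ± 0.24 at the same times. Total RNAP II at this spot was thus low at 30 min, and active RNAP II stayed among the upper values of the array at each time. The raw intensities lay well above 0: IP read 1176, 848 and 1223 at 60 min over WCE of 679, 529 and 498, against IP of 281, 189 and 218 at 30 min over WCE of 645, 331 and 479.

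The spot R11 - C1 : 16 moved in opposite directions in the 2 assays. Its GRO values were -0.54, -0.76 and -0.59 z units at 60 min, against 0.02, 0.24 and -0.17 at 30 min. Its RNAp ChIP values were 0.01, -0.23 and 0.13 z units at 60 min, against -0.64, -0.58 and -0.74 at 30 min. Neither assay's values overlapped between the times. GRO fell by 0.66 z units (standard error 0.148, adjusted p = 0.0368, limma) and RNAp ChIP rose by 0.62 (standard error 0.148, adjusted p = 0.0224, limma). The interaction was -1.28 z units (standard error 0.209, adjusted p = 0.0353, limma). On median-centred log2 ratios it was -1.69 (adjusted p = 0.0619, limma). At 0 min GRO was at -0.25, -0.21 and -0.51 and RNAp ChIP at -0.21, -0.21 and -0.11, between its values at the later times on average in both assays.

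The third spot past the threshold fell outside the rule for naming, because its denominators were among the dimmest 25%, and it is described here after its values were seen. Its RNAp ChIP values were 1.65, 1.95 and 1.85 z units at 60 min, against -0.58, -0.89 and 0.01 at 30 min, and its GRO values were 0.46, 0.52 and 0.86 at 60 min, against 0.51, 0.20 and 0.41 at 30 min. As at R4 - C18 : 16, RNAp ChIP at 60 min was above every value at 30 min, and the GRO values overlapped. The interaction was -2.06 z units (standard error 0.304, adjusted p = 0.0333, limma), from a GRO change of 0.24 and an RNAp ChIP change of 2.30. Its RNAp ChIP mean at 0 min was 1.73 ± 0.31 (SD, n = 3), so that here too 30 min was the low point of total RNAP II. On median-centred log2 ratios its interaction was -1.99 (adjusted p = 0.0619, limma). When 1 of the 12 hybridizations was left out in turn, the call was lost in 8 of 12 cases at R4 - C18 : 16, in 10 of 12 at R11 - C1 : 16 and in 6 of 12 at the third spot, with the sign kept.

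**Figure D3:**
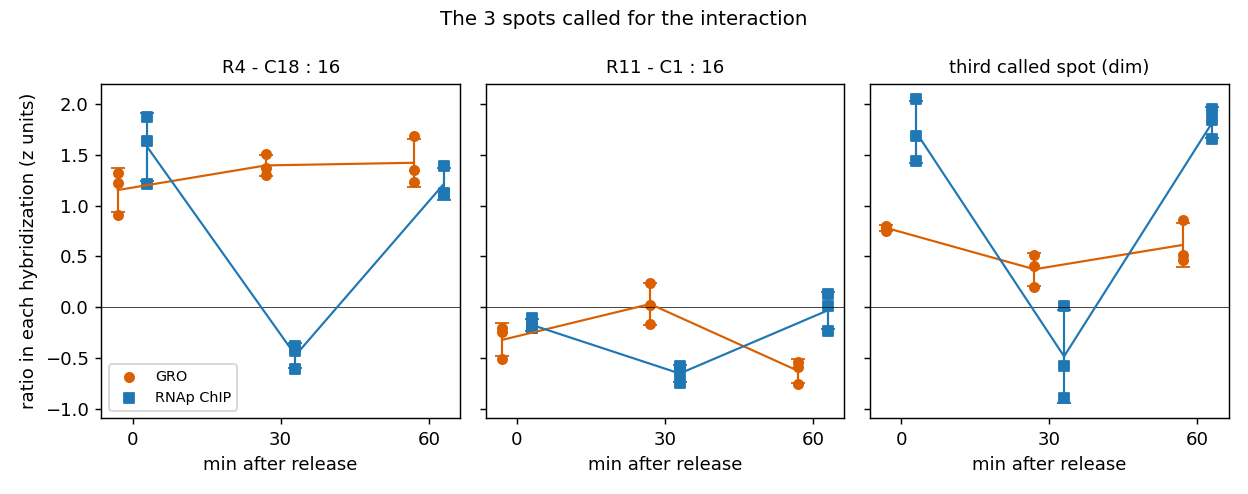
Values of each hybridization (points) with the mean and SD of 3 replicates (lines and bars) in z units (y axis) at 0, 30 and 60 min (x axis) for the 3 spots called for the interaction, GRO in orange and RNAp ChIP in blue. RNAp ChIP is lowest at 30 min at all 3, with means of -0.48, -0.65 and -0.49, while the GRO mean is 0.03 or more at 30 min.

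No spot met the threshold in the upward direction, and the rule then named the largest positive interactions with a value in all 12 hybridizations. At R9 - C21 : 11 the interaction was 2.96 z units with a standard error of 3.17 (adjusted p = 0.783, limma). Its GRO values were 1.02, 9.96 and 0.54 z units at 60 min, against 0.53, 1.23 and -0.09 at 30 min. The value of 9.96 came from replicate 2 on filter 6, where the genomic DNA intensity was 2.62e-04 and the run-on intensity 13.9. Without that replicate the interaction was -0.10.

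At R12 - C13 : 10 the interaction was 2.71 z units with a standard error of 1.78 (adjusted p = 0.601, limma). Its GRO values were 1.17, 5.30 and 0.87 z units at 60 min, against 0.31, 0.49 and 0.68 at 30 min, and again replicate 2 on filter 6 stood apart, with a genomic DNA intensity of 0.059. Its RNAp ChIP values were -1.88, 0.12 and 0.32 at 60 min, against -0.03, 0.10 and 0.74 at 30 min. The GRO values did not overlap between the times and the RNAp ChIP values did. Without replicate 2 of GRO at 60 min the interaction was 1.28. Among all spots the smallest adjusted p with a positive interaction was 0.126.

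At the 20 spots with the smallest p RNAp ChIP mostly moved more on both scales, whereas over the wider set of 620 this depended on the scale. Of the 20 spots with the smallest p, 16 had a negative and 4 a positive interaction, and the RNAp ChIP change was the larger of the 2 changes at 18 in z units and at 15 in log2 units. Over all 620 spots with an unadjusted p below 0.05 it was the larger at 380 (61.3%) in z units and at 305 (49.2%) in log2 units. All 16 with a negative interaction had RNAp ChIP higher at 60 min than at 30 min. Over the 20 the adjusted p ran from 0.0333 to 0.148, and 6 had a denominator among the dimmest 25%. Among the 318 negative interactions with an unadjusted p below 0.05, the median GRO change was -0.33 and the median RNAp ChIP change 0.62 z units, and the assays moved in opposite directions at 232 (73.0%). Among the 302 positive ones the medians were 0.41 for GRO and -0.53 for RNAp ChIP, with opposite directions at 247 (81.8%). These spots were selected on the difference itself, so their medians are a description.

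On these ratios the changes in the 2 assays were weakly related across spots, which are not independent replicates. Pearson's r was 0.236 and Spearman's rho 0.204 over 5698 spots, and the GRO change per unit of RNAp ChIP change was 0.215. Both assays rose at 1502 spots and both fell at 1761, so that 57.3% changed in the same direction. GRO rose and RNAp ChIP fell at 1177 spots, and GRO fell and RNAp ChIP rose at 1258. Over the 5263 spots with a value in all 12 hybridizations r was 0.279. The size of r depended on the denominators. With a mean denominator in place of that of the same filter or replicate, r was 0.707 and 76.0% changed in the same direction. By the WCE match, the filters changed with time in both assays, and their part in this relation was not tested.

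Each change repeated only in part between replicates. Changes computed from single replicates with no hybridization in common correlated at r = 0.140 to 0.260 within GRO (median 0.203, 18 pairs) and at r = 0.260 to 0.486 within RNAp ChIP (median 0.343, 18 pairs). A single-replicate change in GRO correlated with one in RNAp ChIP at r = 0.041 to 0.216 (median 0.134, 81 pairs). The ranges within GRO and between the assays overlapped. The levels themselves repeated better, with r between replicates of 0.802 to 0.854 in GRO at 60 min, 0.764 to 0.801 in GRO at 30 min, 0.751 to 0.859 in RNAp ChIP at 60 min and 0.856 to 0.871 in RNAp ChIP at 30 min.

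The share of spots with the same direction was higher where both changes were large than over all spots. The cut was made on the sizes of the same changes. Where changes are positively related, such a cut itself tends to raise this share, so the rise is a description. Where both were beyond 0.5 z units in size, 314 of 442 spots (71.0%) moved in the same direction, and where both were beyond 1, 55 of 68 (80.9%) did. Of these 68, both assays rose at 43 and fell at 12, GRO rose and RNAp ChIP fell at 9, and the reverse held at 4.

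Signal of the denominators moved with the relation and with the spread of the interaction. The SD of the interaction was 0.968 z units in the quintile of spots with the dimmest genomic DNA and 0.406 in the brightest quintile, and by WCE it was 0.974 and 0.424. The correlation of the 2 changes was 0.127 in the dimmest quintile by genomic DNA and 0.443 in the brightest. Over the 4071 spots not among the dimmest 25% in either assay, r was 0.364, and over the other 1627 it was 0.142. The median interaction was 0.10 in the dimmest quintile of genomic DNA and -0.06 in the brightest, where the median GRO change was 0.03 and -0.04 and the median RNAp ChIP change -0.11 and 0.03. The share of spots with an unadjusted p below 0.05 was 11.8% in the dimmest quintile and 8.77% in the brightest.

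**Figure D4:**
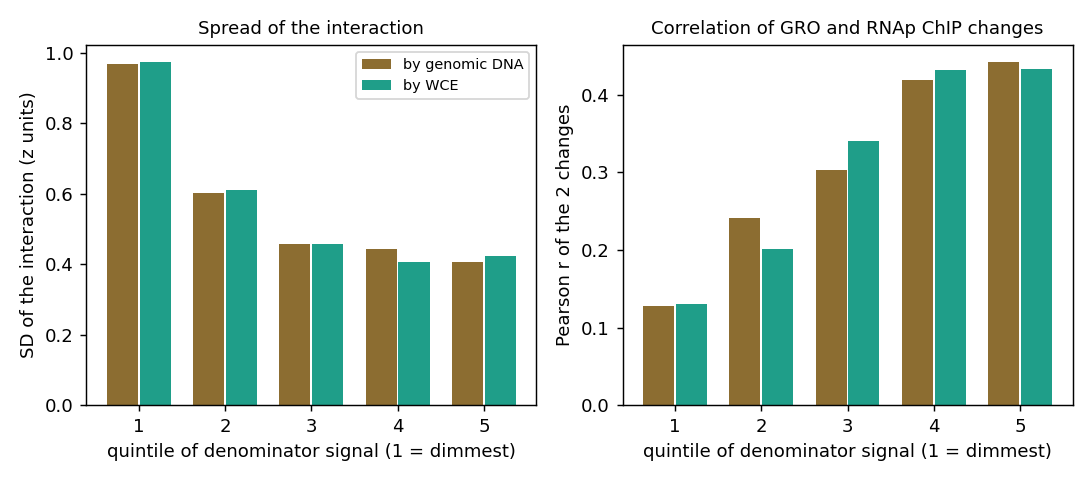
SD of the interaction in z units (left, y axis) and Pearson's r of the GRO and RNAp ChIP changes (right, y axis) in quintiles of spots from the dimmest to the brightest (x axis), by genomic DNA and by WCE. The SD is 0.968 and 0.974 in the dimmest quintiles and at most 0.458 in the 3 brightest, where r is 0.303 or more.

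Spots that changed in one assay mostly moved the same way in the other. By the WCE match, both assays changed to the same filters between the times. A change shared through the filters cannot be told apart here from one shared over time. Of the 53 spots where GRO rose, RNAp ChIP was higher at 60 min at 50 (94.3%), against 48.4% of all spots, and it passed the threshold upward at 37. The median change at these 53 spots was 1.18 z units in GRO and 0.97 in RNAp ChIP. Of the 31 spots where GRO fell, RNAp ChIP was lower at 23 (74.2%), against 51.6% of all spots. It passed the threshold downward at 11 and upward at 1, the spot R11 - C1 : 16. The median change at these 31 was -0.91 z units in GRO and -0.44 in RNAp ChIP.

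Seen from RNAp ChIP, the other assay changed less. Of the 174 spots where RNAp ChIP rose, GRO was higher at 145 (83.3%), against 47.0% of all spots, and passed the threshold upward at 37. The median change was 0.47 z units in GRO and 1.14 in RNAp ChIP. Of the 111 spots where RNAp ChIP fell, GRO was lower at 91 (82.0%), against 53.0% of all spots, and passed the threshold downward at 11, with medians of -0.38 in GRO and -0.86 in RNAp ChIP. The spots were chosen on the change in their own assay, so the gap between the medians is a description.

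The 49 spots called in both assays were 58.3% of the GRO calls and 17.2% of the RNAp ChIP calls, with 37 upward, 11 downward and 1 in opposite directions. A further 271 spots were called in one assay alone. The test of the difference passed at 2 of these 271 (0.738%, against 0.0527% of all spots), and 156 of them (57.6%, against 10.9% of all spots) had an unadjusted p below 0.05. These 271 spots were selected on a large change in one of the 2 terms of the difference, so nothing is read from the gap to all spots.

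The 0 min samples, which enter neither change, place these spots in the time course. At the 174 spots where RNAp ChIP rose, the median RNAp ChIP levels were 0.32, -0.33 and 0.82 z units at 0, 30 and 60 min, and the median GRO levels were 0.35, -0.07 and 0.53. At the 111 where RNAp ChIP fell, the RNAp ChIP medians were 0.01, 0.62 and -0.22 and the GRO medians -0.04, 0.27 and -0.04. At the 53 where GRO rose, the GRO medians were 0.05, -0.46 and 0.85 and the RNAp ChIP medians -0.01, -0.50 and 0.37. At the 31 where GRO fell, the GRO medians were -0.27, 0.45 and -0.57 and the RNAp ChIP medians 0.15, 0.16 and -0.16. The spots were chosen on the change between 30 and 60 min, which largely sets where the level at 0 min falls relative to those 2 times, so the order of the times is a description. GRO shares filter 1 between 0 and 30 min and filter 6 between 0 and 60 min.

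**Figure D5:**
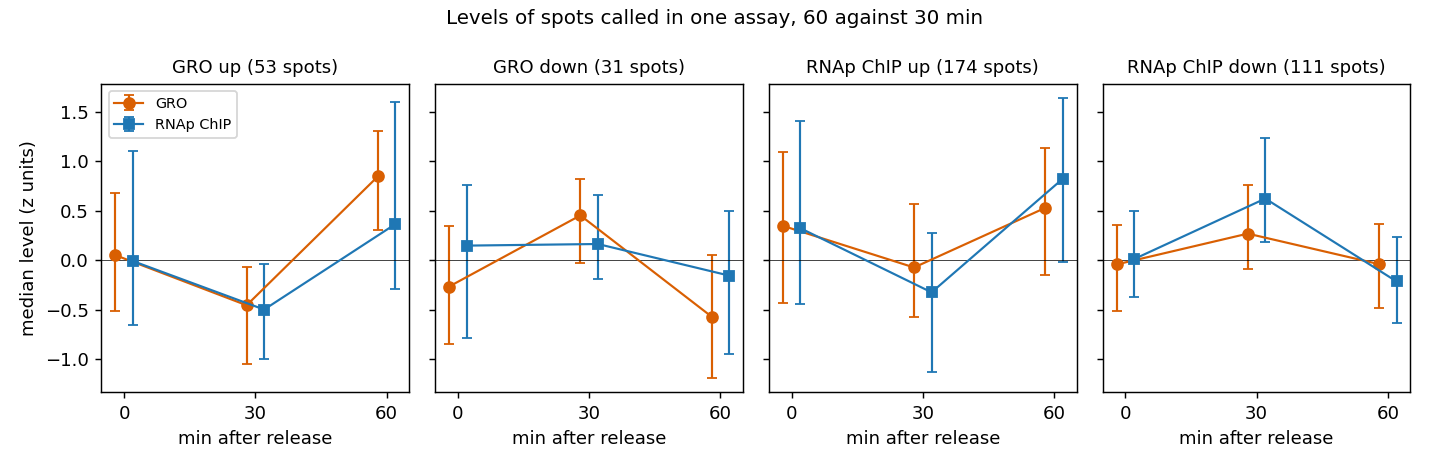
Median level in z units (y axis, bars from the lower to the upper quartile over spots) at 0, 30 and 60 min (x axis) at the spots called in one assay, 60 against 30 min, with GRO in orange and RNAp ChIP in blue. At the spots where RNAp ChIP rose, the median at 30 min is -0.33 in RNAp ChIP and -0.07 in GRO, below both other times in each assay.

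On z-scores, counts of spots whose replicates did not overlap, which need no model, were higher in RNAp ChIP than in GRO. They rest on the same scaling as the calls and were not made on median-centred log2 ratios. On that scale the calls were 194 in GRO and 112 in RNAp ChIP. Of the 5263 spots with all 12 values, all 3 GRO values at 60 min lay above those at 30 min at 568 (10.8%) and below them at 656 (12.5%). For RNAp ChIP the counts were 724 (13.8%) above and 764 (14.5%) below. Both assays were above at 181 spots (3.44%) and both below at 188 (3.57%). GRO was above and RNAp ChIP below at 35 spots (0.665%), and the reverse held at 38 (0.722%). Thus 73 of 5263 spots moved in opposite directions with no overlap in either assay. How many would do so if the assays were unrelated was not worked out, so these counts are a description.

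The 35 spots with GRO above and RNAp ChIP below had interactions from 0.30 to 1.92 z units (median 0.97), with median changes of 0.41 in GRO and -0.49 in RNAp ChIP. None of them passed the adjusted threshold in limma's test, and 31 had an unadjusted p below 0.05. The 38 with GRO below and RNAp ChIP above had interactions from -2.49 to -0.35 (median -0.97), with median changes of -0.43 and 0.53, and 1 passed the threshold (R11 - C1 : 16) with 31 at an unadjusted p below 0.05. Denominators among the dimmest 25% made up 28.6% of the 35 and 31.6% of the 38, against 23.5% of all 5263 spots, 17.1% of the 181 with both assays above and 18.1% of the 188 with both below. At the 35 the median GRO levels were -0.06, -0.26 and 0.33 z units at 0, 30 and 60 min and the median RNAp ChIP levels -0.28, 0.12 and -0.45. At the 38 the median GRO levels were 0.14, 0.35 and -0.03 and the median RNAp ChIP levels -0.01, -0.42 and 0.20. The choice of these spots fixes the order of 30 and 60 min in both assays, and with it the sign of the interaction. Their p rests on the same values, so nothing is read from the counts of 31 against the 10.9% of all 5698 spots.

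The level in G1 of each assay alone was nearly unrelated to the interaction by rank. Spearman's rho across spots was -0.027 with the RNAp ChIP level at 0 min and 0.019 with the GRO level at 0 min. The median interaction in quintiles of the RNAp ChIP level ran from -0.10 in the highest quintile to 0.02, and r of the 2 changes was 0.168 in the lowest quintile and 0.357 in the highest. Since filters 1 and 6 carry GRO at 0 min and at a later time, the level of replicate 2 at 0 min (filter 3) was also used alone, and rho was 0.006. By the GRO minus RNAp ChIP level at 0 min, the median interaction was -0.11 in the lowest quintile and 0.01 in the highest. The interaction was above 0 at 40.2% and 51.0% of their spots. With replicate 2 of GRO alone in this difference, the medians were -0.08 and 0.02.

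Place on the array moved with the interaction. The 24 columns of the grid accounted for 6.72% of its variance over spots, the 16 positions within a block for 3.11% and the 16 rows for 1.56%. The blocks, each a row and column of the grid and far more numerous than these classes, accounted for 18.2%, with block medians from -0.62 to 0.82 z units. The median interaction was 0.34 z units in column 23, where the median RNAp ChIP change was -0.26, and -0.26 in column 7, where the median RNAp ChIP change was 0.14. With the median of every array block removed from each hybridization, 6 spots passed the threshold, all negative, and the interaction of R11 - C1 : 16 was -1.01 (adjusted p = 0.141, limma). The same removal gave 106 spots in GRO (55 of the 84 among them) and 345 in RNAp ChIP (211 of the 285), r of the 2 changes was 0.258, and the interaction of R4 - C18 : 16 was -1.56.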

How the data were processed

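The report rests on 18 ratios of background-subtracted spot intensity, which the authors deposited from phosphorimager scans of nylon macroarrays hybridized with 33P-labelled material and quantified with ArrayVision. The deposited intensity values were not normalized between hybridizations. The LM-PCR step of IP and WCE can alter relative amounts of fragments. The study's background threshold and rDNA scaling were not applied. An intensity of 0 was missing. Replicates came from 3 experiments per the labels. The description of GRO at 30 min mentions only replicates 1 and 2, but its 3 hybridizations were all used. No hybridization repeated another.

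Log2 ratios (GRO over genomic DNA of the filter, IP over WCE) were scaled to z-scores over all spots of a hybridization. One limma 3.58.1 fit (R 4.3.3, lmFit and eBayes) of all 18 ratios in 6 groups gave each change and the interaction, two-sided, with Benjamini-Hochberg adjustment over 5698 spots and a threshold of 0.05. Descriptions used Python 3.11.15, numpy 2.4.6 and pandas 2.3.3. The fit was checked on simulated data with independent noise, for the size and sign of added interactions. This check does not cover noise shared between hybridizations on the same filter. Precision is limited by the number of arrays.

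At most 2 upward and 2 downward spots were named: the largest interactions among called spots with all 12 values, the same sign on log2 ratios and no dim denominator, with the last condition and then the threshold dropped where fewer than 2 qualified. Members and lists were chosen with earlier results of these data known. Alternatives covered scaling, denominators, filters on signal, array blocks, replicate and filter blocks, the titles' time points and leaving out each replicate. The comparison of WCE with genomic DNA filters was added after the values were seen.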

Additional observations from a re-analysis of the deposited data

Results flagged for a closer look

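The change between 30 and 60 min differed between GRO and RNAp ChIP by a test of the difference itself at 3 spots. The interaction was -1.66 z units at R4 - C18 : 16 and -1.28 at R11 - C1 : 16 (adjusted p = 0.0346 and 0.0353, limma). At the third spot, which has dim denominators, it was -2.06 (adjusted p = 0.0333, limma). At R4 - C18 : 16 and the third spot RNAp ChIP rose while the GRO values overlapped, and at R11 - C1 : 16 GRO fell and RNAp ChIP rose. The number of such spots was 0 on median-centred log2 ratios and 19, with 2 upward, with the filter as a random block in GRO alone. The blocks by replicate number are given with the other alternatives. Groups of 3 replicates were not examined for outlying samples.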

How the results depend on the processing

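The count of 3 spots for the interaction was 0 on median-centred log2 ratios, 0 with a mean denominator in place of that of the same filter or replicate, 5 without the dimmest 25% of denominators, 6 with array block medians removed, 8 with a trended prior variance and 19 with the filter as a random block (2 upward, 17 downward, estimated correlation 0.827). With the RNAp ChIP times of the titles it was 369 (207 upward). Leaving out 1 replicate gave 0 to 6. The random block by filter was set in GRO alone, with each RNAp ChIP ratio as its own block. Its correlation of 0.827 rests on filter 1, shared by GRO at 0 and 30 min, and filter 6, shared at 0 and 60 min. The 2 ratios on such a filter also share the same genomic DNA values. A fit of the 4 groups without the 0 min samples gave 2, of which 1 was among the 3. In that fit the adjusted p was 0.0358 at R4 - C18 : 16, 0.0901 at R11 - C1 : 16 and 0.0714 at the third spot (limma). The GRO count of 84 was 194 on log2 ratios, 34 with a mean denominator and 398 with the filter as a random block, of which 186 rose (46.7%, against 63.1%), and 32 to 85 without 1 replicate, with each of the 6 GRO replicates moving it to between 32 and 55. The RNAp ChIP count of 285 was 112 on log2 ratios, 278 with a mean denominator (113 of the 285 among them, with 138 upward or 49.6%, against 61.0%) and 169 to 277 without 1 replicate, with 182 and 169 without replicate 1 or 3 at 30 min. A replicate block within each assay gave 0 spots for the interaction, 50 in GRO and 238 in RNAp ChIP, and a replicate block shared by both assays gave 1. Same-numbered replicates deviated together at r between -0.082 and 0.091, and differently numbered ones at -0.091 to 0.093. The numbers were therefore not taken as pairs. Between GRO and RNAp ChIP at 30 min, r was 0.031, 0.091 and 0.053 for the same number, against -0.091 to 0.042 for different numbers. At 60 min it was -0.005, -0.009 and -0.033, against -0.012 to 0.022. The number also matched the filter in the comparison of WCE with genomic DNA.

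The correlation of 0.236 was 0.707 with a mean denominator, 0.279 with all 12 values, 0.364 without the dimmest 25%, 0.326 with the lowest 5% of intensities missing, -0.236 with the titles' times, which exchange the sign by construction, and 0.205 to 0.245 without 1 replicate. The share with the same direction was 76.0% with a mean denominator, 42.7% with the titles' times and 56.0% to 58.0% without 1 replicate. With the titles' times the interaction reversed to 1.71 at R4 - C18 : 16 and to 2.54 at the third called spot. At R9 - C21 : 11 it was -0.75 with a mean denominator, -0.037 with the lowest 5% missing and -0.10 to 4.61 without 1 replicate, the lowest without replicate 2 of GRO at 60 min. The causes were not tested. A mean denominator is the same at both times, so before scaling it cancels from the changes, which then hold run-on RNA and IP alone. Each hybridization was afterwards divided by its own SD, so in z units the cancelling is not exact. Over 22 alternatives the call was lost in 12 at R4 - C18 : 16, in 17 at R11 - C1 : 16 and in 11 at the third spot, and apart from the titles' times the 3 interactions stayed negative, with adjusted p from 0.00317 to 1.00.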

Other observations

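The intensities behind the ratios changed together between the times. After scaling the log2 intensities of each hybridization to z-scores, the change at 60 against 30 min in genomic DNA correlated with that in WCE at r = 0.702 across the 5698 spots, although they come from different assays. For run-on RNA and IP, the materials on top of the ratios, r was 0.701. Run-on RNA with the genomic DNA of its own filters gave 0.544, and IP with its own WCE gave 0.705. Run-on RNA also correlated with WCE at r = 0.667. The SD of these changes was 0.386 to 0.455 z units. After division by the denominators r of the GRO and RNAp ChIP changes was 0.236, as reported above. The part of the filters in these values was not tested. These comparisons were chosen after the data were seen, and spots are not independent replicates.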
